A study of Mus musculus with 48 samples.

Results

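The genes described here are 10 genes of the NRF2 and metallothionein responses, the transcription factor gene Nfe2l2 (NRF2), its inhibitor Keap1, the NRF2 targets Nqo1, Gclc, Gclm and Srxn1, the metallothioneins Mt1 and Mt2, the zinc exporter Slc30a1 and the zinc-sensing factor Mtf1. They are listed by name, and the rule itself uses no measured value. All 10 were found among the 12423 genes that both assays covered, and all 10 passed the filter on low values that left 11863 genes for testing. The samples were kidneys of male C57BL/6JRj mice aged 11 to 12 weeks, kept under a 12 h:12 h light-dark cycle with free access to food. Lights went on at zeitgeber time (ZT) 0 and off at ZT12, and kidneys were taken at 12 timepoints spaced 2 h apart. Each timepoint had 2 replicate pools, each made of the lysates of 2 mice, and the labels name no treatment or genetic change. Each of the 24 pools gave 1 ribosome footprint library (RPF-seq, ribosome-protected fragments) and 1 total RNA library (RNA-seq).

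NRF2 is a transcription factor that KEAP1 holds back and hands over for degradation. Oxidants and electrophiles modify KEAP1, and NRF2 then accumulates and binds antioxidant response elements next to genes for glutathione synthesis, quinone reduction and thiol repair. Metallothioneins are small cysteine-rich proteins that bind zinc, copper and cadmium, and the kidney is a main site of their action on toxic metals. Their genes respond to metals through MTF1, which binds metal response elements, and also to glucocorticoids. MTF1 acts on the exporter gene Slc30a1 as well, so that metal storage and metal export answer to the same sensor.

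Mt1 and Mt2 are neighbours in the genome (GRCm38, chromosome 8, plus strand; Mt2 at 94172664 to 94173568 and Mt1 at 94179082 to 94180327 in GENCODE release 21). Both have 3 exons and a coding sequence of 186 bases. The coding sequences are shown because reads from such near copies can be hard to tell apart. Capitals mark the 38 bases that differ between them.
Mt1: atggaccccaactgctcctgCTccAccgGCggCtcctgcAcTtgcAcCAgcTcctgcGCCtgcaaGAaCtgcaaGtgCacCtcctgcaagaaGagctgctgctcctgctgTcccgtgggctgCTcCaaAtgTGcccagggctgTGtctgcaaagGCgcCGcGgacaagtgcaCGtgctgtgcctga
Mt2: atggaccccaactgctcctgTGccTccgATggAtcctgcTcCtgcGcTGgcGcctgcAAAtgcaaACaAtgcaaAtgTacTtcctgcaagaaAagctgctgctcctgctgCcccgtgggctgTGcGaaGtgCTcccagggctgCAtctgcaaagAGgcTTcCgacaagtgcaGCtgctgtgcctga
The identity was 79.6%, and 22 of the 38 differences lay at the third base of a codon. The longest identical run was 20 bases, which is under the shortest read kept in either assay (26 bases in RPF-seq and 21 bases in RNA-seq), so no read lying wholly in the coding sequence matched both genes in full. Of the 159 runs of 28 bases in the Mt2 coding sequence, 1 also occurred in a transcript of Pip5k1a, and 0 of the 159 in Mt1 occurred in another gene. Among the other 8 genes, Keap1 shared 2 of 1848 such runs with Gm38007 and the rest shared 0.

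Promoter windows from 250 bases before to 50 bases after the annotated start were taken from RefSeq (GRCm38.p6), which held 9 of the 10 genes. Gclc was missing from that set. The windows below are those of both metallothioneins, of the zinc exporter and of the NRF2 target with the largest fitted daily fold in footprints, written 5′ to 3′ along the gene. Capitals mark matches, on either strand, to the core of the antioxidant response element (TGACNNNGC) or to the core of the metal response element in its A form (TGCACNC) or G form (TGCGCNC).
Mt1, chr8:94178839-94179138, plus strand: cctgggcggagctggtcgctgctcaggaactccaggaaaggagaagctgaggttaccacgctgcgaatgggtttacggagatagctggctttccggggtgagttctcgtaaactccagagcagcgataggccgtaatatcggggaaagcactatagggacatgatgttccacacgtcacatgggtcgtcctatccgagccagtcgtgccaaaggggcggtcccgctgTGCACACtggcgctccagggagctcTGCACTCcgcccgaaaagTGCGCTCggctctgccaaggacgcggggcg
Mt2, chr8:94172368-94172667, plus strand: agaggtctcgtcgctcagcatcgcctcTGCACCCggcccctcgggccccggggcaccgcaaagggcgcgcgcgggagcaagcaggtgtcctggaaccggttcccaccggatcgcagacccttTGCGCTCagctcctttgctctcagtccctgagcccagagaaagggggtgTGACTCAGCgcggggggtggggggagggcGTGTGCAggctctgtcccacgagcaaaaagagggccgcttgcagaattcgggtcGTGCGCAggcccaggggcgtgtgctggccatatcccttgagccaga
Slc30a1, chr1:191906531-191906830, plus strand: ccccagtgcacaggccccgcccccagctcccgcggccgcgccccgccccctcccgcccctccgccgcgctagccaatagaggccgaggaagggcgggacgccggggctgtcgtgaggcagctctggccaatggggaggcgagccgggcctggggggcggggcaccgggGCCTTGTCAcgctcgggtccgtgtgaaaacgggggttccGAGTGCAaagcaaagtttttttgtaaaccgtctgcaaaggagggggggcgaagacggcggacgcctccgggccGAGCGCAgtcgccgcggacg
Srxn1, chr2:152105274-152105573, plus strand: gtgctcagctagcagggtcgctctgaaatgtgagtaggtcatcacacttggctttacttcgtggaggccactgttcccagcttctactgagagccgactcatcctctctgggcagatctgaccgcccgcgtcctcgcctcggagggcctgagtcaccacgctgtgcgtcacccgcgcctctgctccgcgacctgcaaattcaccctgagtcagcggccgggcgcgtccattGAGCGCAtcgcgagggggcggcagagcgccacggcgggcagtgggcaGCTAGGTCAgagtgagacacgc
The Mt1 window held 3 metal response element cores, all in the forward direction and close to the annotated start. These cores lay on both sides of that start, with the G-form core at position 20 after it, so not all were upstream sites. The Mt2 window held 4 such cores and the Slc30a1 window held 2. Of all 32851 windows, 25.7% held at least 1 core of either form, 1.97% held 3 or more and 0.517% held 4 or more. Gclm also held 3 G-form cores, 1 of them overlapping its antioxidant response element core, and Srxn1 held 1. The antioxidant response element core was found in 5 of the 9 windows (Nfe2l2, Gclm, Srxn1, Mt2 and Slc30a1) and in 12.4% of all windows. The E-box CACGTG, the site bound by the clock factors ARNTL and CLOCK, was found in 0 of the 9 windows and in 7.15% of all windows. A match is a stretch of letters only, and binding was not measured. Sequence outside the windows was not searched, so a core beyond them would be missed. Whether the kidney uses these annotated starts was not tested.

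The deposited values were RPKM (reads scaled to the length of the coding sequence and to library size), so levels can be compared between genes per length. Other effects of coding sequence length on footprint levels were not tested. Relative depth, read from the steps between low values, ran from 0.598 to 2.036 in RNA-seq and from 0.701 to 1.577 in RPF-seq, where 1 is the median library. The number of reads behind a value could not be recovered for Nfe2l2 in either assay, Gclm in RNA-seq or Gclc in RPF-seq. Among the rest, the fewest reads behind a library's value were 63 for Mt2 in RNA-seq and 79 for Mtf1 in RPF-seq. The medians for Mt1 were 506 and 2174 reads. Markers of kidney tubules were at high levels in every library, with summed values of the 4 proximal tubule markers from 4141 to 5050 RPKM in RNA-seq. Markers of other tissues were present as well. The 2 adipose markers summed to between 0.25 and 6.05 RPKM in RNA-seq, the 3 liver markers to between 129.7 and 467 RPKM, most of it Ttr (mean 288 RPKM, against 14.1 for Alb and 14.8 for Apoa2), and the 3 adrenal cortex markers were not analysed here. In RNA-seq the replicates at ZT10, ZT12 and ZT4 lay farthest apart over all genes (standard deviation of the log2 difference of up to 0.38).

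To place these genes on the scale of the kidney transcriptome, their mean levels over the 24 pools were compared. In RNA-seq the glutamate-cysteine ligase subunits Gclm (289.5 ± 27.0 RPKM, SD, n = 24 libraries) and Gclc (283.5 ± 51.05 RPKM) were the most abundant of the 10, followed by Mt1 (181 ± 67.6 RPKM). The levels of Nqo1, Slc30a1, Nfe2l2 and Mt2 were close to each other, between 59.05 and 68.9 RPKM on average. Keap1 (28.7 ± 2.57 RPKM) and Srxn1 (26.01 ± 3.93 RPKM) were lower, and Mtf1 was the lowest at 7.30 ± 0.585 RPKM. Each gene was set against the next one down within the pools. Gclm and Gclc, Nqo1 and Slc30a1, Slc30a1 and Nfe2l2, Nfe2l2 and Mt2, and Keap1 and Srxn1 differed by less than 1 SD of their log2 difference over the pools. The other 4 steps down exceeded it. In RPF-seq the order changed, and Mt1 had the most abundant footprints (595.5 ± 210.5 RPKM), ahead of Gclm (455 ± 53.9 RPKM) in 16 of 24 pools. Gclc followed with 239 ± 51.4 RPKM, then Mt2 with 183 ± 73.7 RPKM and Nqo1 with 121 ± 15.1 RPKM. Mt1 and Gclm, Gclc and Mt2, Mt2 and Nqo1, and Srxn1 and Keap1 were neighbours that differed by less than 1 SD in footprints. Mtf1 was again the lowest, at 2.91 ± 0.486 RPKM.

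Translation efficiency (TE), the ratio of RPF to RNA RPKM in the same pool, was highest for the metallothioneins and lowest for Mtf1. TE of Mt1 ran from 1.89 to 5.47 with a median of 3.45, and TE of Mt2 ran from 1.95 to 4.52 with a median of 3.11. By the ratio of their mean levels, these lay at percentiles 99.7 and 99.6 of the 11863 genes tested, among which the median TE was 0.956 and the central 95% spanned 0.21 to 2.24. Both coding sequences are only 186 bases long. The paper reports more stop codon footprints in kidney than in liver, and higher TE of short coding sequences in liver. The part of either in these ranks was not tested. The next gene was Nqo1, the quinone reductase, with a median TE of 1.78, and TE of Mt2 was higher than that of Nqo1 in 24 of 24 pools. Gclm (median 1.54) and Nfe2l2 (median 1.35) were above the median gene, Srxn1 (1.10) and Slc30a1 (1.04) were near it, and Keap1 (0.849) and Gclc (0.847) were slightly below it. Mtf1 had a TE between 0.265 and 0.506 with a median of 0.403, at percentile 10.4. Neighbours in this order that differed by less than 1 SD over the pools were Mt1 and Mt2, Nqo1 and Gclm, Nfe2l2 and Srxn1, Srxn1 and Slc30a1, and Gclc and Keap1. The plot of TE by gene shows both metallothioneins above the band that holds most genes.

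**Figure D1:**
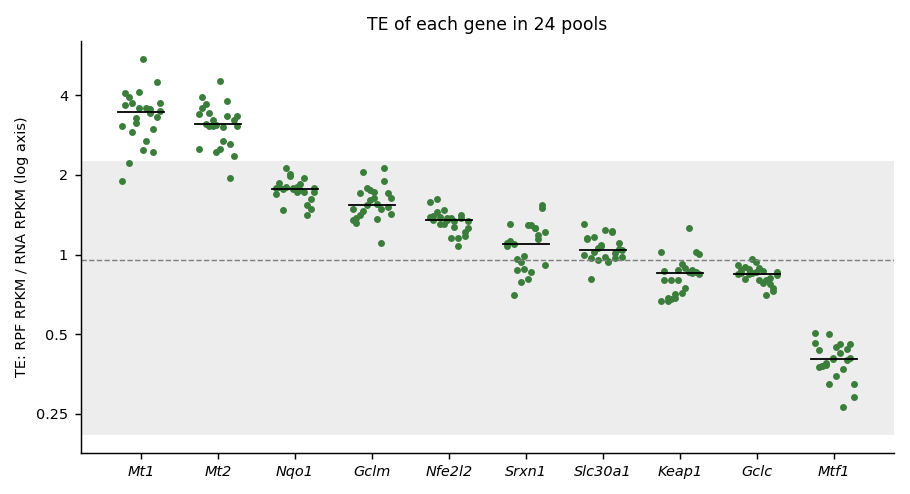
TE (RPF RPKM divided by RNA RPKM, log axis) of each gene in the 24 pools, 1 point per pool, ordered from left to right by ZT within a gene. Black bars are medians, the grey band spans the central 95% of tested genes (0.21 to 2.24) and the dashed line is their median (0.956). Most pools of Mt1 and Mt2 lie above the band, and Mtf1 lies below 0.51 in every pool.

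Genes that act as partners were compared within pools. Each ratio was tested by a two-sided sign-flip permutation test with 100000 resamples over the 24 pools, and the p-values were adjusted by Benjamini-Hochberg over 15 ratios. For 13 of the 15 ratios p was 1e-05, the smallest the resamples can give, and the adjusted p was 1.15e-05. The Mt1 level was 3.09-fold that of Mt2 in RNA-seq (range over pools 2.05 to 4.29) and 3.32-fold in RPF-seq (2.17 to 4.66), higher in 24 of 24 pools in both. TE of Mt1 was 1.08-fold that of Mt2, higher in 16 of 24 pools, which did not pass (permutation adjusted p = 0.087). GCLC carries the catalytic site of glutamate-cysteine ligase and GCLM is its modifier subunit. A difference in their RNA levels was not detected, with Gclc at 0.969-fold the level of Gclm (range 0.739 to 1.47, permutation adjusted p = 0.423). Footprints of Gclc were 0.517-fold those of Gclm and lower in 24 of 24 pools, and TE of Gclc was 0.533-fold that of Gclm in as many. The levels of Nfe2l2 were 2.08-fold those of its inhibitor Keap1 in RNA-seq and 3.35-fold in RPF-seq, higher in 24 of 24 pools in both. TE of Nfe2l2 was 1.61-fold that of Keap1 and higher in 23 of 24 pools. The storage gene Mt1 stood at 2.66-fold the RNA level of the exporter gene Slc30a1 and at 8.33-fold its footprint level. The coding sequences of these genes are 186 and 1512 bases long. Between the 2 factors that head these pathways, Nfe2l2 stood at 8.11-fold the RNA level of Mtf1 and at 26.8-fold its footprint level, both in 24 of 24 pools.

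Over the day, the metallothioneins rose and fell together, with a maximum in the second part of the light phase and a minimum in the second part of the dark phase. The question was which of the 10 genes follow a 24-h rhythm in RNA and in footprints. A gene was called rhythmic when a 24-h cosine passed a Benjamini-Hochberg false discovery rate (FDR) of 0.05 in limma and its fitted peak-to-trough fold was at least 1.5. In RNA-seq 2 of the 10 genes, Mt1 and Mt2, were called rhythmic, against 10.2% of all tested genes. The same 2 of 10 were called in RPF-seq, against 7.58% of tested genes. With only 10 genes, 2 calls lie near these shares, and the counts say nothing about the group as a whole. In bulk tissue, fewer cells of a type and less RNA per cell cannot be told apart.

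Mt1 RNA was highest at ZT8, with 291 and 255 RPKM in the 2 pools, and lowest at ZT20, with 109 and 94.2 RPKM. The replicates lay farthest apart at ZT4 (242 and 106 RPKM) and at ZT12 (302 and 137 RPKM), and they also differed at ZT0 and ZT2. The ZT12 pool with 302 RPKM was the deepest RNA-seq library (relative depth 2.036), and the part of depth in its value was not tested. From ZT16 to ZT22 the libraries lay between 94.2 and 142 RPKM. The fitted fold was 2.23 (log2 1.16 ± 0.19, SE) with a peak at ZT8.56 ± 0.64 h, and it passed the test (limma, adjusted p = 1.28e-04). Mt1 footprints followed the same course with closer replicates. They reached 913 and 838 RPKM at ZT8 and 325 and 302 RPKM at ZT18, with a fitted fold of 2.40 (log2 1.26 ± 0.15) and a peak at ZT8.84 ± 0.47 h (limma, adjusted p = 4.98e-06). From ZT6 to ZT14 the footprint libraries ranged from 724 to 922 RPKM, and from ZT16 to ZT0 they ranged from 302 to 495 RPKM. The remaining timepoints did not keep to this split, with 785 and 527 RPKM at ZT2 and 538.5 and 415 RPKM at ZT4.

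Mt2 RNA was also highest at ZT8, with 93.8 and 95.7 RPKM, and had its lowest mean at ZT18, with 30.9 and 43.0 RPKM. The single lowest library was a pool at ZT0 with 28.5 RPKM, whose partner had 50.7 RPKM. The fitted fold was 2.53 (log2 1.34 ± 0.17) with a peak at ZT8.42 ± 0.49 h (limma, adjusted p = 4.74e-06). Mt2 footprints had the largest fitted fold of the 10 genes, though its interval overlapped that of Mt1. They stood at 287 and 309 RPKM at ZT8, the highest mean, and at 81.0 and 83.9 RPKM at ZT18, the lowest. The footprint pools of ZT2 lay far apart, at 264 and 137 RPKM. The fitted fold was 2.84 (log2 1.505 ± 0.16) with a peak at ZT7.94 ± 0.40 h (limma, adjusted p = 4.23e-07).

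**Figure D2:**
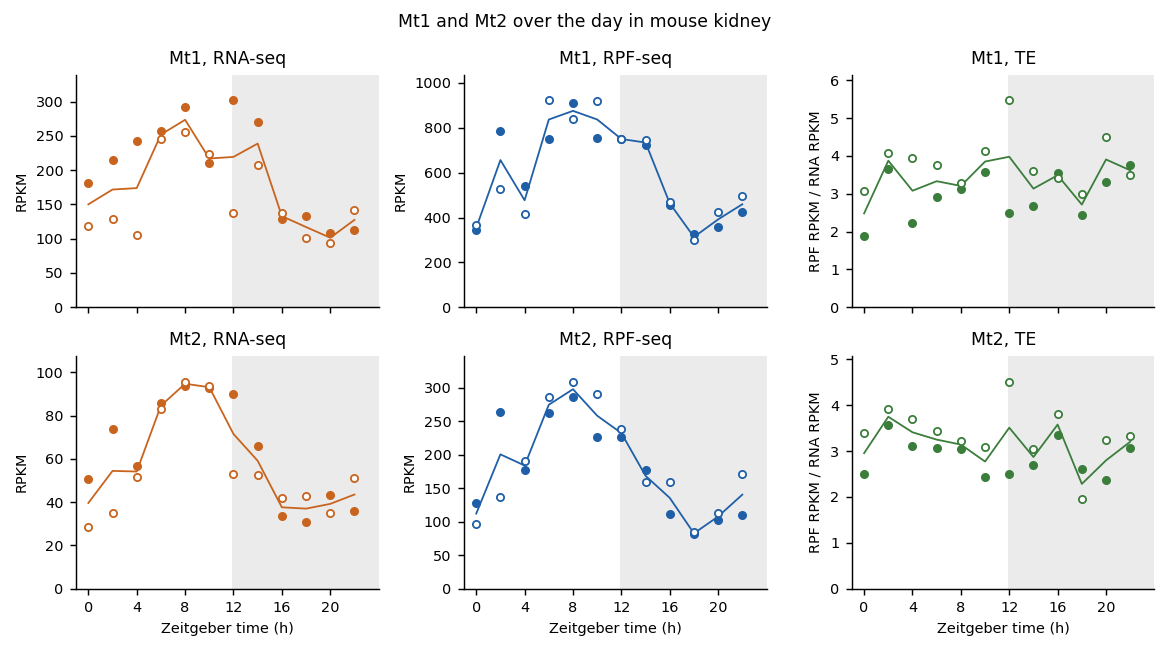
Mt1 (top) and Mt2 (bottom) by zeitgeber time (h) in RNA-seq (RPKM), RPF-seq (RPKM) and TE (ratio). Filled and open points are replicate pools 1 and 2, lines join the means, all vertical axes start at 0 and grey marks the dark phase. RNA and footprints of both genes crest at ZT8 and fall by ZT18, the RNA replicates of Mt1 part at ZT4 and ZT12, and TE shows no such crest.

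The RNA and footprint peaks of the metallothioneins lay close in time. The footprint peak of Mt1 came 0.28 ± 0.79 h after its RNA peak and that of Mt2 0.48 ± 0.63 h before, each within its error. Between the genes, the footprint peak of Mt1 fell 0.90 ± 0.61 h after that of Mt2. A daily change in TE was not detected for either gene. The fitted TE fold was 1.10 for Mt1 (95% interval 1 to 1.45, limma adjusted p = 0.852) and 1.18 for Mt2 (1 to 1.47, adjusted p = 0.445). These intervals are only approximate where the fitted fold is near 1, so a TE swing of 1.5-fold is not excluded. When ZT4 and ZT12 were left out together, a setting chosen after seeing the replicates of Mt1, the RNA folds were 2.36 for Mt1 and 2.66 for Mt2, and the footprint folds were 2.52 and 2.93. In each of the 24 fits that left out 1 library both genes remained called in both assays, with RNA folds of Mt1 from 2.15 to 2.37. RNA-seq depth was lower in the late dark phase, with relative depths from 0.598 to 0.832 in the libraries from ZT18 to ZT22, and its part in the RNA values was not tested.

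Some markers of other cell types also followed the day. Of the 2 adipose markers, Plin1 was too low to be tested and Adipoq was rhythmic, with a fold of 3.58 and a peak at ZT3.95 in RNA-seq and a fold of 5.03 and a peak at ZT4.90 in RPF-seq, at mean levels of 1.16 and 2.57 RPKM. The summed adipose level in RPF-seq ran from 2.69 to 11.6 RPKM at ZT0 to ZT10 and from 0.552 to 3.92 RPKM at ZT12 to ZT22. Of the 3 liver markers, Alb was rhythmic in RNA-seq (1.83-fold, peak ZT23.8) and, with another peak time, in RPF-seq (2.14-fold, peak ZT15.6). Of the 3 collecting duct markers, Aqp2 was rhythmic in RNA-seq (1.72-fold, peak ZT14.8) and in RPF-seq (1.665-fold, peak ZT15.7). The part of these cells in the metallothionein values was not tested.

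The exporter gene Slc30a1 (chromosome 1, 191906767 to 191913247, plus strand), which MTF1 also controls, had its fitted peak in the dark phase. Its RNA ranged from 55.3 to 63.5 RPKM in the libraries from ZT0 to ZT10 and from 62.3 to 75.7 RPKM in those from ZT12 to ZT22, so the ranges overlapped only between 62.3 and 63.5 RPKM. The 24-h component passed an FDR of 0.05 with a fold of 1.20 and a peak at ZT17.2 ± 0.77 h (limma, adjusted p = 9.93e-04), below the 1.5-fold cutoff. That peak fell 8.65 ± 1.00 h after the RNA peak of Mt1. Slc30a1 footprints had their highest mean at ZT16, with 76.8 and 89.8 RPKM, and their lowest at ZT4, with 59.3 and 46.0 RPKM. Their fitted fold was 1.24 with a peak at ZT17.5 ± 1.12 h (limma, adjusted p = 0.0313). The footprint call was lost on leaving out any of these libraries (both of ZT4, both of ZT16, replicate 2 of ZT8 and replicate 2 of ZT18), with an adjusted p of up to 0.0684, and without ZT4 and ZT12 together (adjusted p = 0.119). It was also lost after quantile normalisation (adjusted p = 0.0537), with a 12-h harmonic (0.11) and without replicate 1 or 2 (folds 1.39 and 1.11). The RNA call was lost without replicate 1 or 2, with folds of 1.24 and 1.16 beside the 1.20 of all libraries. TE of Slc30a1 ran from 0.808 to 1.31 and showed no 24-h component (fold 1.04, 95% interval 1 to 1.19, limma adjusted p = 0.893).

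For Mtf1 (chromosome 4, 124802104 to 124849800, plus strand), the gene of the sensor itself, no rhythm was detected. Its RNA ran from 6.18 to 8.41 RPKM with a median of 7.38 RPKM, and the timepoint means spanned 6.34 RPKM at ZT4 to 8.05 RPKM at ZT18. The fitted RNA fold of 1.13 (95% interval 1.02 to 1.25) did not pass (limma, adjusted p = 0.0945), except after quantile normalisation of the libraries (fold 1.20, adjusted p = 0.0115). Mtf1 footprints ran from 1.90 to 3.85 RPKM and had a fitted fold of 1.09 (1 to 1.33, limma adjusted p = 0.788). The interval, approximate for so small a fold, leaves room for a swing of about 1.33-fold at this depth of 79 to 254 reads per library.

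**Figure D3:**
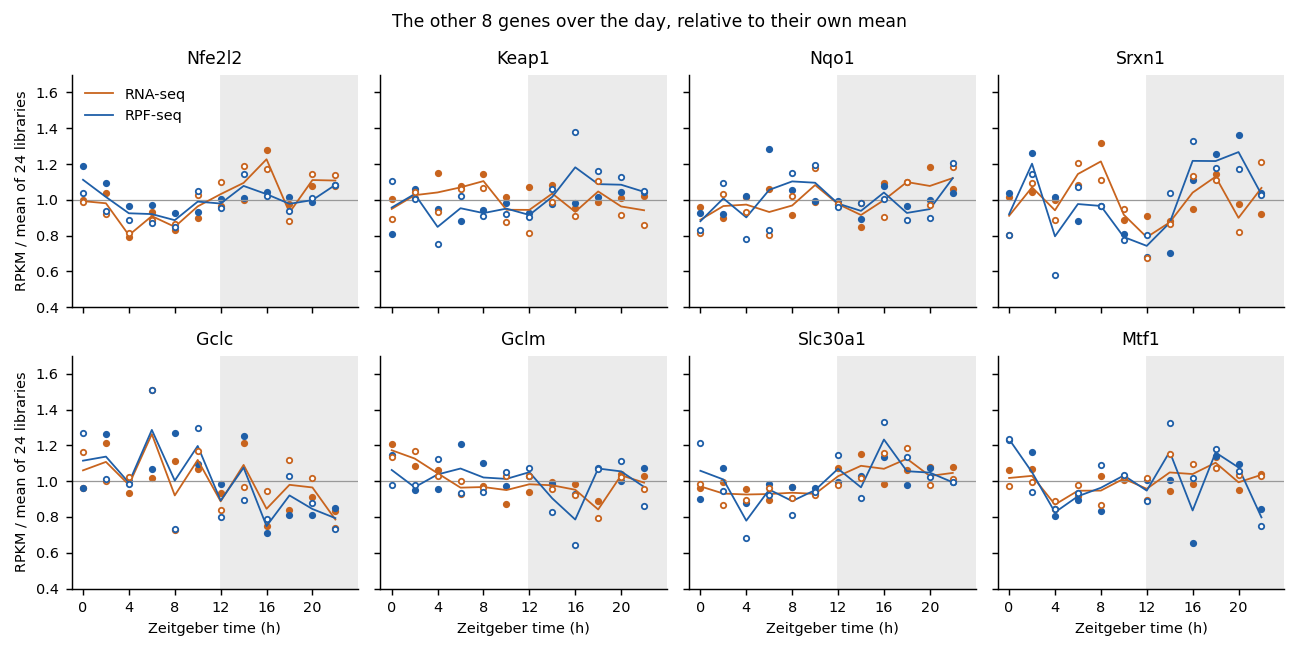
The other 8 genes by zeitgeber time (h) in RNA-seq (orange) and RPF-seq (blue), each divided by the mean of its 24 libraries so that 1 is the gene's own mean. Filled and open points are replicate pools 1 and 2, lines join the means and grey marks the dark phase. Nfe2l2 RNA and Slc30a1 stand higher in the dark phase, and the replicates of Gclc lie far apart.

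Nfe2l2 (chromosome 2, 75675513 to 75704641, minus strand) RNA changed over the day by less than the 1.5-fold cutoff. It was lowest at ZT4, with 47.6 and 49.0 RPKM, and highest at ZT16, with 77.1 and 70.6 RPKM. The course was not smooth, since both pools at ZT18 dropped back to 58.9 and 52.9 RPKM. The fitted fold was 1.28 (log2 0.36 ± 0.08) with a peak at ZT17.6 ± 0.82 h (limma, adjusted p = 1.88e-03), and this 24-h component passed in all 24 fits that left out 1 library. It did not pass without replicate 1 at every timepoint (fold 1.295, adjusted p = 0.1098). Nfe2l2 footprints ranged from 67.6 to 94.8 RPKM with a smaller fitted fold of 1.13 that did not pass (limma, adjusted p = 0.0802). Leaving out replicate 2 of ZT10 or replicate 2 of ZT18 took that adjusted p to 0.0461 and 0.0423. TE of Nfe2l2 was lowest at ZT16 (1.08 and 1.16), where its RNA was highest, and highest at ZT4 (1.62 and 1.44), where its RNA was lowest. RNA is the divisor of TE, so error in the RNA value alone moves TE the opposite way. The fitted TE fold of 1.17 with a peak at ZT3.94 ± 1.21 h did not pass (limma, adjusted p = 0.0723), and it passed without replicate 2 of ZT18 (adjusted p = 0.0416).

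Keap1 (chromosome 9, 21229730 to 21239361, minus strand) RNA lay between 23.4 and 33.1 RPKM, with a fitted fold of 1.08 (95% interval 1 to 1.20, limma adjusted p = 0.433). Its footprints were lowest at ZT4, with 22.6 and 17.9 RPKM, and highest at ZT16, with 23.5 and 32.9 RPKM. The ZT16 pools lay farther apart than the means of ZT4 and ZT16. The footprint fold of 1.22 with a peak at ZT18.3 ± 1.15 h passed an FDR of 0.05 (limma, adjusted p = 0.0363), and so did the TE fold of 1.31 with a peak at ZT18.3 ± 1.06 h (adjusted p = 0.0385). The footprint call was kept in 18 of the 24 fits without 1 library. It was lost without replicate 2 of ZT4, ZT8, ZT16, ZT18 or ZT20 or replicate 1 of ZT6 (adjusted p up to 0.072), and without ZT4 and ZT12 together (adjusted p = 0.1201), with a 12-h harmonic (0.114) and without replicate 1 or 2 at every timepoint (0.127 and 0.604). The TE call was kept in 16 of 24, and it was lost without either pool of ZT4 or ZT8, replicate 1 of ZT6 or replicate 2 of ZT16, ZT20 or ZT22 (adjusted p up to 0.0743).

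Among the NRF2 targets, Srxn1 (chromosome 2, 152105516 to 152111376, plus strand), which encodes the sulfiredoxin that repairs over-oxidised peroxiredoxins, had the largest fitted fold in footprints. The 95% interval of that fold (1.14 to 1.75) overlapped those of the other targets. Mean footprints of Srxn1 were lowest at ZT12, with 19.1 and 22.6 RPKM, and highest at ZT20, with 38.3 and 32.9 RPKM. The lowest library was a pool at ZT4 with 16.2 RPKM. Srxn1 RNA showed no 24-h component, ranging from 17.6 to 34.3 RPKM with a fitted fold of 1.12 (limma, adjusted p = 0.515), and its means were highest at ZT8 and lowest at ZT12. The footprint fold was 1.41 with a peak at ZT20.5 ± 1.15 h (limma, adjusted p = 0.0364), and the TE fold was 1.44 with a peak at ZT19.4 ± 0.95 h (limma, adjusted p = 0.0233). TE was 1.504 and 1.54 at ZT20 and 0.789 and 0.941 at ZT8. The footprint call was kept in 16 of the 24 fits without 1 library and was lost without either pool of ZT10, ZT12, ZT18 or ZT20 (adjusted p up to 0.079), and without ZT4 and ZT12 together (adjusted p = 0.0887) or without replicate 1 at every timepoint (0.313). The TE call was kept in 21 of 24 and was lost without replicate 1 of ZT8 or either pool of ZT20 (adjusted p up to 0.0555). Without replicate 2 of ZT22 the TE fold reached 1.51 and with it the rule for a rhythm. These values rested on 98 to 369 RNA reads and 147 to 510 footprint reads per library.

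Nqo1, the quinone reductase often used as a readout of NRF2 activity, had the smallest fitted folds of the 4 targets in both assays (chromosome 8, 107388225 to 107403206, minus strand). The 95% intervals of these folds overlapped those of the other targets. Nqo1 RNA ran from 55.5 to 81.6 RPKM with a median of 67.9 RPKM, and its footprints from 94.6 to 155 RPKM with a median of 120.3 RPKM. The fitted folds were 1.10 in RNA-seq (95% interval 1 to 1.24, limma adjusted p = 0.401) and 1.08 in RPF-seq (1 to 1.24, adjusted p = 0.673). A 1.5-fold rhythm lay outside both intervals, which are approximate for such small folds. TE of Nqo1 had its highest mean at ZT8 (2.01 and 1.99) and its lowest at ZT18 (1.54 and 1.42), with a fitted fold of 1.16 that did not pass (limma, adjusted p = 0.109). It passed without replicate 2 of ZT4 (adjusted p = 0.037) and without ZT4 and ZT12 together (adjusted p = 0.0476).

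Gclc (chromosome 9, 77754535 to 77794485, plus strand) varied widely between the 2 pools of a timepoint. Its RNA was 289 and 427 RPKM at ZT6 and 316 and 206 RPKM at ZT8, so that the highest and the lowest of the 24 libraries came from adjacent timepoints. The replicate SD was 0.24 on the log2 scale in RNA-seq and 0.27 in RPF-seq. Footprints followed the same pools, with 254 and 360 RPKM at ZT6 and 303 and 175 RPKM at ZT8. The fitted folds were 1.18 in RNA-seq (limma, adjusted p = 0.275) and 1.36 in RPF-seq (95% interval 1.11 to 1.67, adjusted p = 0.0514), both with a peak near ZT6. The footprint fold passed in 5 of the 24 fits that left out 1 library (replicate 2 of ZT0, ZT4, ZT8 or ZT18, or replicate 1 of ZT14), with a lowest adjusted p of 0.00827, and after quantile normalisation (adjusted p = 0.0275). TE of Gclc was tighter than either level (0.702 to 0.960), with a fitted fold of 1.15 and a peak at ZT6.02 ± 1.13 h (limma, adjusted p = 0.0526). The TE fold passed without replicate 2 of ZT0, replicate 2 of ZT4 or replicate 1 of ZT14 (adjusted p of 0.037 at the lowest).

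Gclm (chromosome 3, 122245557 to 122270732, plus strand) RNA was highest at ZT0, with 350.3 and 329 RPKM, and lowest at ZT18, with 258 and 229.7 RPKM. The 24-h component had a fold of 1.17 with a peak at ZT1.76 ± 1.12 h (limma, adjusted p = 0.0208) and missed the threshold without replicate 2 of ZT2 (adjusted p = 0.0516) and without replicate 1 or 2 at every timepoint (0.248 and 0.065). Gclm footprints ranged from 294 to 549.8 RPKM, with both their lowest library and their lowest mean at ZT16 (422 and 294 RPKM). They showed no 24-h component (fold 1.12, 95% interval 1 to 1.29, limma adjusted p = 0.423). The same held for TE of Gclm (fold 1.08, adjusted p = 0.75).

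Without the fold cutoff, RNA of 5 of the 10 genes passed the test for a 24-h component (Mt1, Mt2, Nfe2l2, Slc30a1 and Gclm), against 48.6% of tested genes, and so did footprints of 5 (Mt1, Mt2, Slc30a1, Srxn1 and Keap1), against 30.9%. In TE, 0 of 10 passed the full rule, against 3.74% of tested genes, and 2 (Srxn1 and Keap1) passed without the fold cutoff, against 17.1%. At an unadjusted p under 0.05 in limma, TE of Nfe2l2, Nqo1 and Gclc joined them. The share of all tested genes at that looser threshold was not computed, and the 17.1% does not apply to it. The median fitted fold of the 10 genes was 1.18 for RNA, 1.23 for footprints and 1.16 for TE, beside 1.21, 1.18 and 1.19 over all tested genes. Testing the 12 timepoints as a factor, with no assumed shape, called 4 of the 10 genes in RNA-seq, against 31% of tested genes. They were Nfe2l2 (adjusted p = 0.00508), Mt2 (0.007), Gclm (0.0248) and Mt1 (0.0337), by limma. In RPF-seq the same test called Mt1 (adjusted p = 2.48e-05) and Mt2 (5.47e-04), against 12.8% of tested genes.

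**Figure D4:**
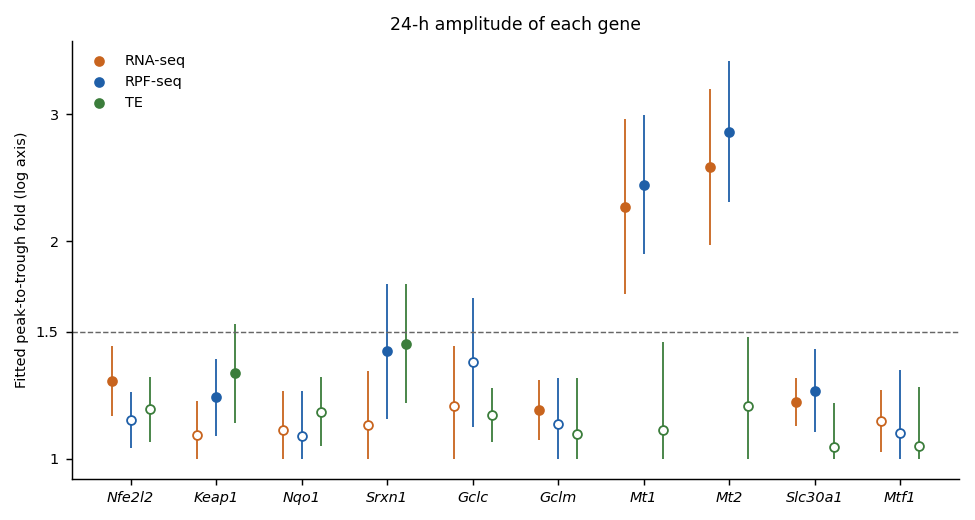
Fitted peak-to-trough fold (log axis) of the 24-h cosine for each gene in RNA-seq, RPF-seq and TE, with 95% intervals. Filled points passed an FDR of 0.05 and open points did not, and the dashed line is the 1.5-fold cutoff. Mt1 and Mt2 stand above the line in RNA-seq and RPF-seq (2.23 to 2.84), and all other points lie below it.

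Whether genes rose and fell together was asked for 10 pairs in each assay, 20 relations in all, over the 24 pools. Each r was tested with 100000 permutations, and p-values were adjusted by Benjamini-Hochberg over the 20. These permutations treat pools as exchangeable, and pools share the time of day. Mt1 and Mt2 moved together in RNA-seq (Pearson's r = 0.846, Spearman's rho = 0.81) and in RPF-seq (r = 0.918, rho = 0.923), with a permutation p of 1e-05 each, the smallest possible, and an adjusted p of 0.0001. Without the 2 libraries farthest from the median of Mt1, r was 0.814 and 0.899. The difference between replicates at a timepoint, from which the time of day drops out, was also shared (r = 0.691 in RNA-seq and 0.634 in RPF-seq over 12 timepoints). Mt1 showed no relation to Slc30a1 that passed (r = -0.193 in RNA-seq and -0.202 in RPF-seq, permutation adjusted p = 0.561 for both), nor to Mtf1 (r = -0.313 and -0.13, permutation adjusted p = 0.4 and 0.681). The same held for Mt2 and Slc30a1 (r = -0.282 and -0.344, permutation adjusted p = 0.454 and 0.4). For the replicate differences with Slc30a1, r was 0.453 in RNA-seq and 0.354 in RPF-seq for Mt1. It was 0.586 and 0.0759 for Mt2. For Mt1 with Mtf1 it was -0.186 and 0.14. The r of replicate differences was not tested.

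Few relations were found among the NRF2 targets. Gclc and Gclm, whose products form 1 enzyme, had r = 0.0945 in RNA-seq and 0.24 in RPF-seq (permutation adjusted p = 0.771 and 0.528). Nqo1 and Gclc moved in opposite directions in RNA-seq, with r = -0.598 and rho = -0.556 (permutation p = 0.00219 and 0.00598, adjusted p = 0.0146 and 0.0399). That relation was r = -0.439 without the 2 libraries farthest from the median of Nqo1 and r = -0.738 for the replicate differences. It did not pass with replicate 2 alone (r = -0.475, permutation adjusted p = 0.643). In RPF-seq it did not pass either (r = -0.323, permutation adjusted p = 0.4). The other pairs of targets, Nqo1 with Srxn1, Nqo1 with Gclm and Srxn1 with Gclc, had r between -0.312 and 0.138, with adjusted p-values of 0.4 or more in permutation tests. Nfe2l2 and Nqo1 had r = 0.214 in RNA-seq and 0.084 in RPF-seq (permutation adjusted p = 0.561 and 0.771).

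The genes whose RNA course was most like that of a given gene were taken as the 3 with the highest Pearson's r over the 24 RNA-seq libraries. For Mt1 these were Tapbp (r = 0.938), Lama5 (0.912) and Vars (0.901), with fitted peaks from ZT7.53 to ZT8.21 and folds from 1.29 to 1.47. For Mt2 they were Dchs1 (0.904), Parp10 (0.896) and Slc27a1 (0.883), with peaks from ZT7.62 to ZT8.25 and folds from 1.35 to 1.75. Each of these neighbours had a higher r with its metallothionein than Mt1 and Mt2 had with each other in RNA-seq (0.846). The folds of these neighbours were smaller than those of the metallothioneins. For Nfe2l2 they were 9930021J03Rik (0.826), Hoxd10 (0.826) and Wnk1 (0.812), with peaks from ZT16.8 to ZT18.2. Mtf1 had weaker neighbours, led by Baz1a (0.671). Genes that are alike in this sense share time of day, depth and pool, and no p is given.

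Rhythms in the wider NRF2 pathway were counted next. Of 20 further NRF2 targets, 18 could be tested (all but Gstp1 and Slc7a11), and the rhythm rule was met by RNA of 2, by footprints of 3 and by TE of 0 of them, beside 10.2%, 7.58% and 3.74% of all tested genes. Hmox1, the inducible heme oxygenase, swung 1.52-fold in RNA-seq and 1.96-fold in RPF-seq with a peak at ZT19.5 in both (limma, adjusted p = 0.0214 and 0.00375). Ephx1, the microsomal epoxide hydrolase, swung 1.72-fold in both assays, peaking at ZT12.5 in RNA-seq (adjusted p = 1.95e-10) and at ZT11.8 in RPF-seq (adjusted p = 1.70e-09). Osgin1 was called in RPF-seq (1.98-fold, peak ZT16.7, adjusted p = 8.43e-04), and its RNA fold of 1.56 did not pass (adjusted p = 0.0556). Without the fold cutoff 8 of the 18 passed in each assay and 5 in TE, beside 48.6%, 30.9% and 17.1% of all tested genes. The median fold over the 18 genes was 1.25 for RNA and 1.14 for footprints, beside 1.21 and 1.18 over all tested genes. The fitted peaks of the targets called rhythmic were spread over ZT11.8 to ZT19.5.

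Of the 8 NRF2 partners and regulators, Maff was rhythmic in RNA-seq (1.73-fold, peak ZT7.97, limma adjusted p = 0.0461) at a mean level of 1.47 RPKM, and Mafk in RPF-seq (1.52-fold, peak ZT5.18, adjusted p = 0.0152). Both encode small MAF proteins, which pair with NRF2 on DNA. All 9 genes of glutathione synthesis and use were tested, and 0 were called rhythmic by limma at any level, while a 24-h component below 1.5-fold passed for RNA of 2, footprints of 3 and TE of 1 of them. The shares over all tested genes were 10.2%, 7.58% and 3.74% for the full rule and 48.6%, 30.9% and 17.1% without the fold cutoff, and 9 genes are too few to set against them.

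Of 21 zinc transporters and other metallothioneins, 17 could be tested (all but Mt3, Mt4, Slc30a10 and Slc39a4). None was called rhythmic by limma in RNA-seq or RPF-seq, while 9 and 4 of them had a 24-h component below the cutoff. These counts lie near the shares over all tested genes (10.2% and 7.58% with the cutoff, 48.6% and 30.9% without it). Slc30a2, the gene of another zinc exporter, was the one gene of this list called in TE (1.57-fold, peak ZT16.1, adjusted p = 0.00213). Of the 6 genes known to respond to glucocorticoids, 4 were rhythmic in RNA-seq and 5 in RPF-seq, beside 10.2% and 7.58% of all tested genes. Those in RNA-seq were Tsc22d3 (4.37-fold, peak ZT15.7), Per1 (4.21-fold, ZT12.3), Zbtb16 (3.31-fold, ZT13.4) and Sgk1 (2.64-fold, ZT16.0), with later fitted peaks than the metallothioneins. Klf9 of the same list, named after its values were seen, passed the FDR below 1.5-fold and peaked at ZT8.01 in RNA-seq (1.27-fold, limma adjusted p = 0.00519) and at ZT7.69 in RPF-seq (1.38-fold, adjusted p = 0.00338). In RPF-seq the folds were 5.33 for Tsc22d3, 4.45 for Per1, 2.55 for Zbtb16 and 2.43 for Sgk1. The difference in timing from Mt1 and Mt2 was not tested.

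**Figure D5:**
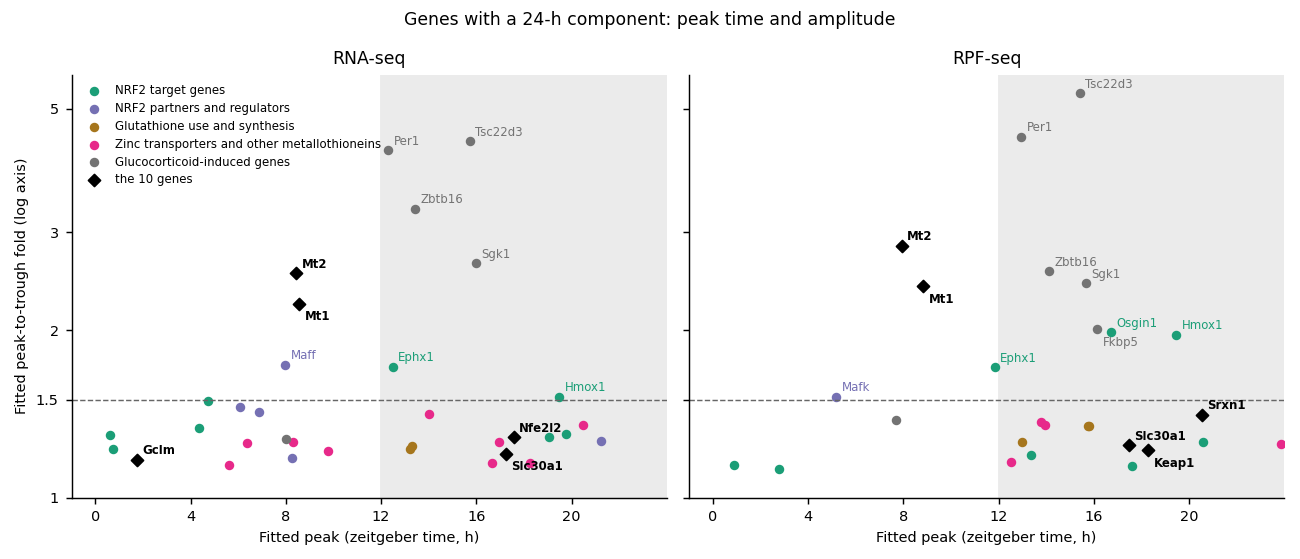
Fitted peak time (zeitgeber time, h) and peak-to-trough fold (log axis) of genes whose 24-h component passed an FDR of 0.05, in RNA-seq (left) and RPF-seq (right). Black diamonds are those of the 10 genes, colours give the pathway lists, the dashed line is the 1.5-fold cutoff and grey marks the dark phase. Mt1 and Mt2 lie at ZT7.94 to ZT8.84, and the glucocorticoid-induced genes above the line lie between ZT12.3 and ZT16.1.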

How the data were processed

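RPF-seq and RNA-seq libraries were made from the same kidney lysate pools, 24 of each. The authors trimmed reads with Cutadapt, kept footprints of 26 to 35 and RNA fragments of 21 to 60 bases, mapped them with Bowtie 2.2.1 to rRNA, tRNA and Ensembl 75 cDNA and with TopHat 2.0.11 to GRCm38.p2, and counted reads in coding sequences. The deposited values are RPKM after upper quantile normalisation by the authors with edgeR, so a change in total RNA per cell cannot be seen, and genes under the authors' RPKM cutoff were left out.

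From these, genes were kept when their median RPKM reached 0.5 in each assay, and values were analysed as log2(RPKM + 0.1), which slightly understates folds of low genes. A cosine and sine of 24 h were fitted over the 24 libraries of an assay with limma 3.58.1 in R 4.3.3 (moderated F test with a variance trend, Benjamini-Hochberg adjustment over 11863 genes). For TE the same model was fitted to the log2 RPF to RNA ratio of each pool. The fits were tested on simulated data. Whole reads behind a gene were recovered where its values lay on whole steps within 0.01, which held for 400 of 400 low genes tried in each assay. Other statistics used scipy 1.17.1, numpy 2.4.6 and pandas 2.3.3 under Python 3.11.15, and figures matplotlib 3.10.9. Of 12423 gene identifiers, 12373 matched a symbol.

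Every one of the 10 genes is named. Of the pathway lists, genes called rhythmic are named, at most the 4 with the largest fold per list and assay, and for Mt1, Mt2, Nfe2l2 and Mtf1 the genes with the highest correlation. The genes, lists and tests were chosen with earlier results of these data known. Alternatives were other pseudocounts and filters, quantile normalisation, a 12-h harmonic, a replicate block, each replicate left out and, added after seeing the data, single libraries left out, ZT4 with ZT12, and model choice by Akaike's criterion. Replicates are separate pools of mice. Liver libraries were not analysed here. The result for 1 marker gene is not reported here.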

Additional observations from a re-analysis of the deposited data

Results flagged for a closer look

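For 2 of the 10 genes the footprints and the RNA followed the day differently, by the test of their ratio within pools (limma, Benjamini-Hochberg FDR of 0.05), which 17.1% of all tested genes passed, so the count of 2 lies near that share. The TE of Srxn1 swung 1.44-fold with a peak at ZT19.4, and the TE of Keap1 swung 1.31-fold with a peak at ZT18.3. Both folds are below 1.5. The Srxn1 call was kept in 21 and the Keap1 call in 16 of 24 fits that left out 1 pool, and neither passed with a 12-h harmonic added (adjusted p = 0.0935 and 0.133). With 1 replicate per timepoint the folds were 1.505 and 1.60 for Srxn1 and 1.43 and 1.21 for Keap1, and that design passed 0 or 2 of 11863 genes in TE, so it does not bear on the calls.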

How the results depend on the processing

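The calls of Mt1 and Mt2 in RNA-seq and RPF-seq held under other pseudocounts (1 and 0.01), no filter or a median of at least 2 RPKM, quantile normalisation, a 12-h harmonic, and each replicate or library left out. The number of genes called stayed at 2 for RNA and at 2 to 3 for footprints, the added gene being Srxn1 with the harmonic and without replicate 2. For TE it was 0 to 1 over the libraries left out, and 1 (Srxn1) only without replicate 2 of ZT22. With no fold cutoff it was 5 for RNA, 5 for footprints and 2 for TE. Replicate differences at different timepoints correlated with a mean r of 0.0291 (RNA) and 0.0197 (footprints), above 0.1 in 13 and 10 of 66 pairs of timepoints and up to 0.48 and 0.185. Kidneys were taken over 2 daily cycles, and the labels do not say whether a replicate number marks a cycle. The replicate block left the counts at 2, 2 and 0, and those of the timepoint test at 4 and 2, and it brought TE of Gclc past the threshold (adjusted p = 0.0414). Without replicate 1 or 2, 14 or 13 of the 15 partner ratios and 2 or 3 of the 20 correlations passed, against 13 and 3. Of 1020 fits of a gene's fold under an alternative, 55 lost and 20 gained an adjusted p under 0.05. The cause was not tested. A fit without replicate 1 or 2 leaves 1 pool per timepoint, and fewer of all tested genes then passed the FDR in each assay. Whether a call lost that way is particular to its gene was not tested. Some folds also moved, and without replicate 1 and without replicate 2 the footprint folds were 1.363 and 1.085 for Keap1. For Slc30a1 they were 1.393 and 1.112. With 2 pools per timepoint, calls of folds under 1.5 often rested on single libraries. Among genes whose reads could be recovered, Mt2 in RNA-seq and Mtf1 in RPF-seq had the fewest.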
